A study of Homo sapiens with 6 samples.

Results

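The mitotic gene set comprised 52 genes for the kinases, kinetochore, spindle, cytokinesis and anaphase-promoting complex (APC/C) factors that carry cells through M phase. They were taken by symbol from the deposited tables, which held 38557 gene symbols, and every member was found and had enough reads to be tested. Poly(A) RNA was profiled from T-24, an epithelial line from a human bladder cancer labelled wild type, after 48 h with CCT068127 at 1 µM (3 libraries) or with its vehicle DMSO (3 libraries). CCT068127 is known as an inhibitor of CDK2 and CDK9. All libraries came from 1 cell line and 1 time point, and the labels describe the samples of a group as independent biological replicates.

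Mitosis is started by CDK1 bound to cyclin B, after CDC25 phosphatases remove its inhibitory phosphates. PLK1 and the Aurora kinases then build the spindle, kinetochores join chromosomes to microtubules, and the spindle checkpoint holds the APC/C inactive until every kinetochore is attached. CDC20 then lets the APC/C mark securin and cyclin B for degradation, after which kinesins and the central spindle organise cytokinesis. Most transcripts of these genes peak in G2 and M and fall in G1. In bulk RNA, fewer cells in G2 and M and less RNA per cell cannot be told apart.

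Library totals ran from 1966742 to 5557546 counts in CCT068127 and from 5955296 to 411097626 in DMSO, where replicates 1 and 2 were the deep ones. The lowest member counts per library were 13 to 34 in CCT068127, 32 in DMSO replicate 3 and at least 2122 in the deep DMSO libraries. The keratin genes KRT7, KRT8, KRT18 and KRT19 each stood at 191 TPM (a length-adjusted share of all transcripts) or more in every library. The epithelial cadherin gene CDH1 was at 0.14 TPM or less, and none of the uroplakin genes of differentiated urothelium passed 1.83 TPM. GATA3, a transcription factor gene of the urothelial list, had 16.1, 12.1 and 13.4 TPM in CCT068127, against 78.1, 96.7 and 99.6 TPM in DMSO, so that the 5 urothelial markers summed to 13.7 to 18.9 TPM in CCT068127 and 79.2 to 102 TPM in DMSO. The summed level of 5 immune markers was 45 to 47.3 TPM in CCT068127 and 5.48 to 9.53 TPM in DMSO. Of these, CD68, which encodes a lysosomal protein, gave 40.1 to 43.3 TPM in CCT068127, while the pan-leukocyte gene PTPRC was at 0.52 TPM or less in every library, and 1 of the 5 reached 1 TPM in all libraries. LYZ, which encodes lysozyme, had 4.39, 2.62 and 4.17 TPM in CCT068127, against 0.39, 0.35 and 0.22 TPM in DMSO. CD3E, which marks T cells, was at 0.05 TPM or less. HBA1, which encodes alpha-globin, had 16.5, 16 and 0 TPM in CCT068127 replicates 1 to 3 (27, 9 and 0 counts) and was at 0 in DMSO, while HBB was at 0 in CCT068127. The 3 erythroid markers summed to 0.2 to 16.5 TPM in CCT068127 and to 0.1 TPM or less in DMSO, and the part of any of these marker lists in the results was not tested.

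A shared sequence feature of G2/M genes is the cell cycle genes homology region (CHR), with the letters TTTGAA or TTCGAA, often close to CCAAT boxes bound by NF-Y. RefSeq windows on GRCh38.p14, 250 bases before to 50 after each annotated start, were found for 44 of the 52 members (56 windows). A CHR on either strand was present in at least 1 window of 34 of the 44 members (77.3%), against 19.5% of the 27305 genes in the table. CCAAT on either strand was present in 37 members (84.1%), against 39.7% of all genes, and at 2 or more places in 24 members (54.5%), against 12.9%. The E2F sites TTTCCCGC or TTTGGCGC were present in 3 members (6.82%), against 2.75% of all genes. The CHR was found in 14 of the 19 members with a window that rose under CCT068127 and in 18 of the 22 that did not pass the test. It was also found in 2 of the 3 that fell. No difference between these response classes was tested.

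The stretches below, 120 bases before to 30 after the start, show this. PRC1 and ANLN rose and hold a CHR near the start, PLK1 and CCNB2 did not pass and hold one at a like place, SPC24 and CENPU rose without one in the window, and KIF20A fell without one there. Capitals mark CHR, CCAAT or their reverse complements, and a match is a description of letters, not a site shown to be used.
PRC1 (chr15:90994506-90994655, minus strand): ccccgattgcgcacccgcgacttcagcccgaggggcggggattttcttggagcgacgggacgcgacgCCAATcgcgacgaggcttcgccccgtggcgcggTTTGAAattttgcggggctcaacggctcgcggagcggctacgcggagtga
ANLN (chr7:36389742-36389891, plus strand): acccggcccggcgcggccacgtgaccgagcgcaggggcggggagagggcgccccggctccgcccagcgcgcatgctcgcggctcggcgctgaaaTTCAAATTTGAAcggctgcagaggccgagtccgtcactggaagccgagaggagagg
PLK1 (chr16:23678769-23678918, plus strand): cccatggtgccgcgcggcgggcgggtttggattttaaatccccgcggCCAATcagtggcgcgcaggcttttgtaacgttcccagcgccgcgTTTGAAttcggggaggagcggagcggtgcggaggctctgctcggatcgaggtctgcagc
CCNB2 (chr15:59105026-59105175, plus strand): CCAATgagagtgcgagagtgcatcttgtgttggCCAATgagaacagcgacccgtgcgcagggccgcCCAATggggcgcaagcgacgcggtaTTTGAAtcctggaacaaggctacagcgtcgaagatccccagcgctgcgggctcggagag
SPC24 (chr19:11155753-11155902, minus strand): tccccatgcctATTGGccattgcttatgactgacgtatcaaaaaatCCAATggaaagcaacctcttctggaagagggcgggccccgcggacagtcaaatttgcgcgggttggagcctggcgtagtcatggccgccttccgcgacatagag
CENPU (chr4:184734067-184734216, minus strand): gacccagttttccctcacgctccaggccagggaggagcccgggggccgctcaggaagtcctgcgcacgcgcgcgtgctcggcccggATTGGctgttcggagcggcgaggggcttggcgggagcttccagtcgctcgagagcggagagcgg
KIF20A (chr5:138178992-138179141, plus strand): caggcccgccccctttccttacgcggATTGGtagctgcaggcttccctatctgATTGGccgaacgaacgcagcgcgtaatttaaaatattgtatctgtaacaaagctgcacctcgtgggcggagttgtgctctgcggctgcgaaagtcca

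With CCT068127 the set did not move as 1 block: 24 members rose, 3 fell and 25 did not pass an adjusted p of 0.05 (edgeR quasi-likelihood test, 3 libraries per group). The share that passed was 51.9%, against 64.7% of the 13597 genes tested. Of the members 46.2% were higher, against 31.9% of all genes, and 5.77% were lower, against 32.8%. The median log2 fold change was 0.37 over the members, with a range from -1.69 to 2.18, and -0.05 over all genes. The libraries of the 2 groups did not overlap for 24 members with higher values and 4 with lower values in CCT068127. Over all genes the groups did not overlap in 69.4% of cases, in 33.3% with CCT068127 higher and in 36.0% with it lower. Figures that follow are CPM, counts scaled by TMM-adjusted library totals, unless TPM is named, and a fold change says how a gene moved against the rest of its library.

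**Figure D1:**
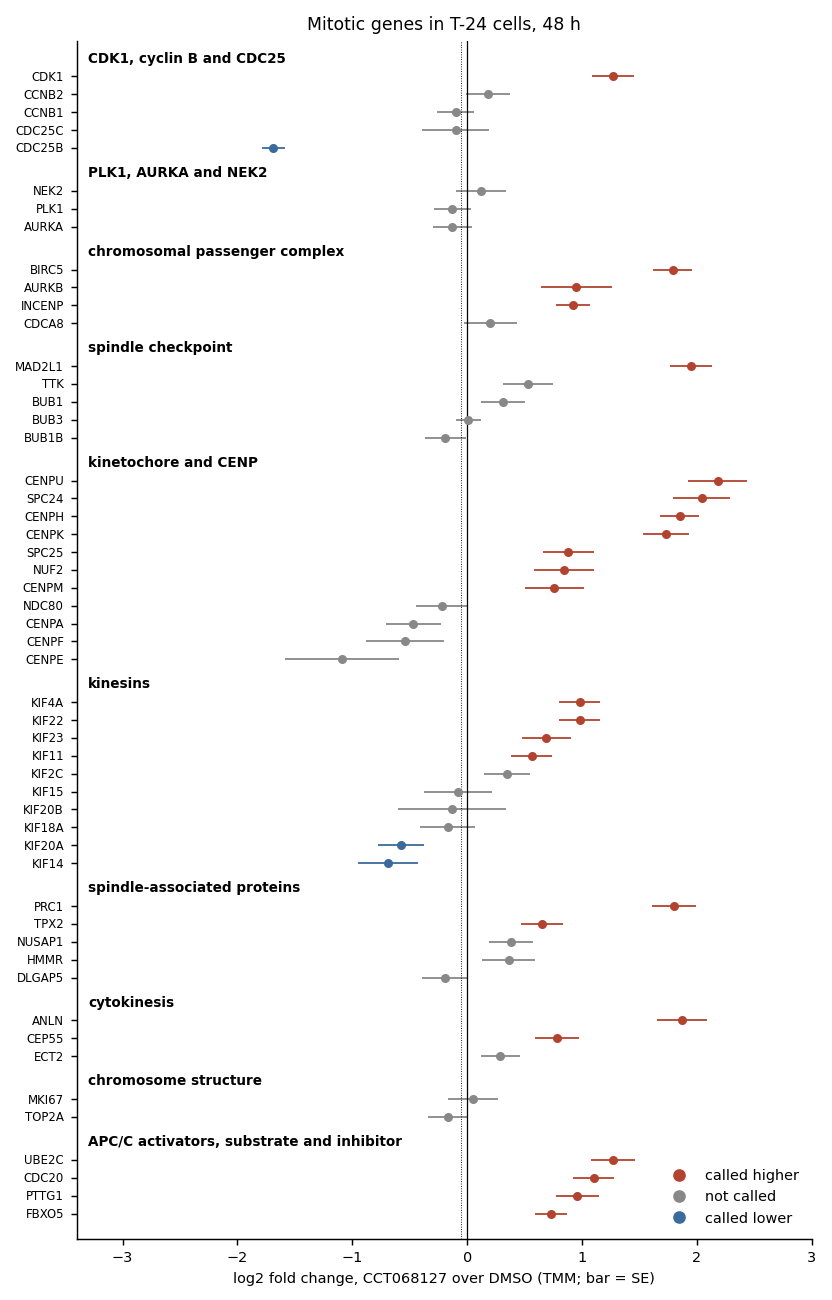
Log2 fold change of CCT068127 over DMSO (x axis, bars are SE) for the 52 members, grouped by role and ordered within each group. The solid line is 0 and the dotted line the median of all genes (-0.05). The group of APC/C activators, substrate and inhibitor lies wholly to the right (0.73 to 1.27), while the kinetochore group runs from -1.09 to 2.18.

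A feature of the controls bears on every value. DMSO replicate 1 had the highest of the 3 DMSO levels for 52 of 52 members, whereas it was the highest DMSO library for 38% of all genes tested. Its log2 level exceeded the mean of DMSO replicates 2 and 3 by 0.10 to 1.06 across members (median 0.63), and by a median of 0.01 across all genes. In 33 of the 52 members all CCT068127 libraries lay above both DMSO replicates 2 and 3, against 35.9% of all genes. In 19 of the 52 members DMSO replicate 1 was the highest of all 6 libraries, against 14.2% of all genes. Without DMSO replicate 1, 31 members were higher and 2 lower, with a median of 0.63, against 31.7% and 32.2% of all genes in that fit. The 7 members that gained a call were CCNB2, CDCA8, BUB1, TTK, KIF2C, HMMR and NUSAP1, with log2 fold changes of 0.41 to 0.76.

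The share of members that passed differed between the 4 functional classes. It was 25% for kinases, 60% for kinesins, 63.6% for kinetochore genes and 100% for APC/C factors, against 64.7% of all genes tested. Of all genes 31.9% were higher and 32.8% lower. All 4 APC/C genes rose (median 1.03), namely its activator CDC20, its enzyme UBE2C, its substrate PTTG1 and its inhibitor FBXO5. None of them is a core subunit. Of 16 core and chain-enzyme genes outside the set, 7 rose and 2 fell (median 0.12). Among 11 kinetochore and CENP genes 7 rose, 0 fell and 4 did not pass (median 0.84). Among 8 kinases 2 rose, 0 fell and 6 did not pass (median 0.22). Among 10 kinesins 4 rose, 2 fell and 4 did not pass (median 0.14). The counts depended on the scaling, since with library totals and on log2(TPM + 1) values alike 1 kinase was higher and 3 lower, 5 kinetochore genes were higher and 3 lower, and 2 kinesins were higher and 2 lower. The APC/C genes held 4 higher with library totals and 2 on log2(TPM + 1) values. Over all genes 22.1% were higher and 48.3% lower with library totals, and 17.2% and 51.9% on log2(TPM + 1) values. Single libraries moved the smaller counts: 4 kinases were higher without DMSO replicate 1, and 1 without any 1 CCT068127 library or without DMSO replicate 2. Of the kinesins, 2 were higher without CCT068127 replicate 2 or 3 or DMSO replicate 2. No kinesin was lower without CCT068127 replicate 1, and 1 was without CCT068127 replicate 2 or 3 or DMSO replicate 1. In the kinetochore class 6 genes were higher without CCT068127 replicate 1 and 5 without CCT068127 replicate 2. NUF2 and SPC25 lost their calls without CCT068127 replicate 3, and CENPM without DMSO replicate 2 or 3. In that class 1 gene was lower without CCT068127 replicate 3 (CENPE) or without DMSO replicate 2 (CENPA). The mean log2 level per library, relative to the DMSO mean of each gene, was 1.05, 0.96 and 1.13 for the APC/C genes in CCT068127 replicates 1 to 3, against 0.35, -0.16 and -0.19 in DMSO replicates 1 to 3. For the kinases it was 0.34, 0.45 and 0.42 in CCT068127 and 0.42, -0.21 and -0.21 in DMSO, so DMSO replicate 1 stood level with the treated libraries. For the kinesins it was -0.17, 0.47 and 0.36 in CCT068127 and 0.39, -0.22 and -0.17 in DMSO, and CCT068127 replicate 1 lay among the DMSO values. For the kinetochore genes it was 0.46, 0.94 and 0.90 in CCT068127 and 0.44, -0.21 and -0.23 in DMSO. These are descriptions of a set chosen with earlier results known, and the difference between classes was not tested.

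**Figure D2:**
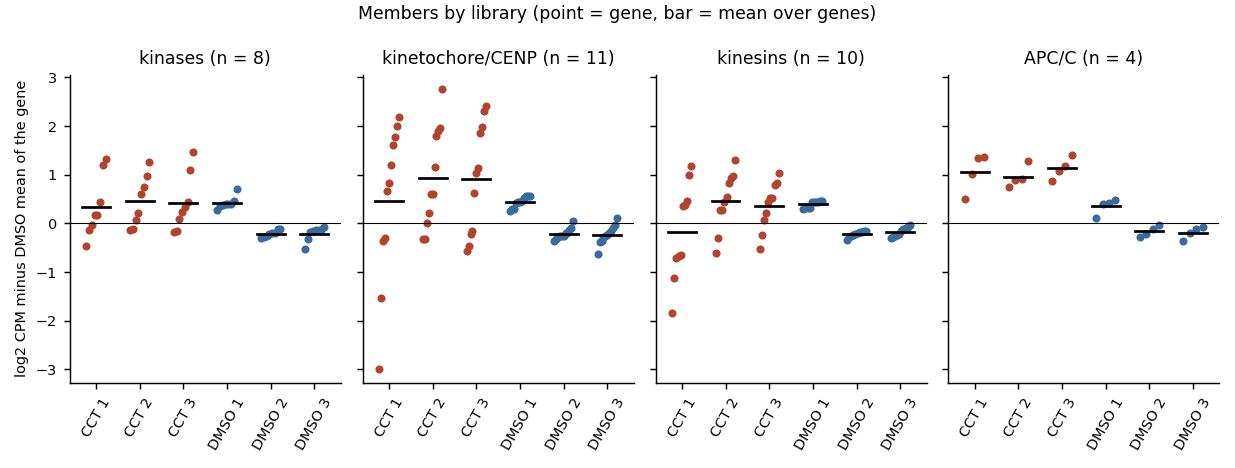
Log2 CPM of each member minus its DMSO mean (y axis), by library (x axis), for 4 classes, where each point is a gene and each black bar the mean over genes. DMSO replicate 1 sits above the other DMSO libraries in each class.

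The entry kinase and its partners parted. CDK1, the kinase that triggers mitosis (chromosome 10, 60778331 to 60794852, GRCh38), had 71.9, 76.5 and 87.1 CPM in CCT068127, against 41.9, 26.1 and 29 CPM in DMSO. No treated library reached down to a DMSO library, and CDK1 rose by 1.27 on the log2 scale, with an SE of 0.18 (edgeR adjusted p = 0.00013). CCNB1, which encodes the cyclin B1 partner of CDK1, had 89.1, 84 and 72 CPM in CCT068127, against 109, 75.7 and 77.2 CPM in DMSO. Its groups overlapped and it did not pass (-0.10 ± 0.16, edgeR adjusted p = 0.58). CCNB2 stood at 0.18 ± 0.19 and did not pass, but did without DMSO replicate 1 (0.41, edgeR adjusted p = 0.0179). Without that library CCNB1 stood at 0.07, and with library totals it passed as lower (-0.42). Per length, the TPM ratio of CDK1 over CCNB1 was 1.06 ± 0.231 in CCT068127 and 0.398 ± 0.0227 in DMSO (SD, n = 3 each), with no overlap between the groups. Such a ratio within a library does not depend on the scaling of libraries.

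The phosphatases that activate CDK1 also differed. CDC25B, which starts CDK1 activation at the centrosome (chromosome 20, 3786951 to 3806115), had 63.6, 66.3 and 59.9 CPM in CCT068127, against 213, 202 and 196 CPM in DMSO. It fell 3.23-fold (log2 fold change -1.69 ± 0.10, edgeR adjusted p = 2.51e-07), the largest decrease of the set. It was also the member in which DMSO replicate 1 differed least from the other DMSO libraries (0.10 on the log2 scale). CDC25C, which acts in the amplifying loop, had 9.78, 8 and 8.05 CPM in CCT068127 and 12.5, 8.24 and 5.67 CPM in DMSO and did not pass (edgeR adjusted p = 0.787). CDC25A, the family member outside the set that acts from G1/S onwards, rose by 2.48 ± 0.18, so the 3 phosphatase genes held 1 higher, 1 lower and 1 that did not pass.

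Of the 3 kinases that build the spindle poles none passed, against 64.7% of all genes tested. PLK1 had 50.1, 46.8 and 45.7 CPM in CCT068127, against 65.2, 43.9 and 46.4 CPM in DMSO (-0.13 ± 0.16, edgeR adjusted p = 0.49). AURKA had 60.3, 69.7 and 58.5 CPM in CCT068127, against 85.9, 57.6 and 58.4 CPM in DMSO (-0.13 ± 0.17, edgeR adjusted p = 0.525). NEK2, which separates centrosomes, had 14.5, 14.9 and 15.1 CPM in CCT068127, against 17.6, 11.7 and 10.2 CPM in DMSO (0.12 ± 0.22, edgeR adjusted p = 0.651). In all 3 the treated libraries lay close together and below DMSO replicate 1. With scaling by library totals PLK1 and AURKA passed as lower, at -0.45 and -0.44, and likewise on log2(TPM + 1) values, at -0.58 and -0.61. Without DMSO replicate 1 they stood at 0.06 and 0.07, so their sign depended on that library.

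The chromosomal passenger complex, which corrects faulty attachments and later moves to the central spindle, rose in 3 of its 4 genes. Of all genes tested 31.9% rose and 64.7% passed. BIRC5, which encodes survivin (chromosome 17, 78214253 to 78225635), had 144, 125 and 147 CPM in CCT068127, against 52.1, 33.8 and 33.9 CPM in DMSO (1.79 ± 0.17, edgeR adjusted p = 7.94e-06). INCENP, the scaffold, had 78.9, 80.5 and 77.9 CPM in CCT068127, against 52.2, 36.6 and 34.6 CPM in DMSO (0.92 ± 0.15). AURKB, the catalytic subunit, had 52.2, 34.8 and 44.3 CPM in CCT068127, against 33.8, 18.2 and 14.5 CPM in DMSO (0.95 ± 0.31, edgeR adjusted p = 0.0274). The lowest treated AURKB value lay just above DMSO replicate 1. Its call was lost without any 1 CCT068127 library or without DMSO replicate 2, with edgeR adjusted p of 0.0557 to 0.139, and with library totals (0.0805). CDCA8, which encodes borealin, had 28.1, 31.4 and 27 CPM in CCT068127 and 33.3, 21.4 and 17 CPM in DMSO and did not pass (0.20 ± 0.23). It passed at 0.49 without DMSO replicate 1 (edgeR adjusted p = 0.0141). The TPM ratio of BIRC5 over CDCA8 was 4.43 ± 0.692 in CCT068127 and 1.57 ± 0.232 in DMSO, and that of INCENP over CDCA8 1.4 ± 0.0853 and 0.855 ± 0.102 (SD, n = 3 each).

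In the spindle checkpoint 1 of 5 genes passed, against 64.7% of all genes tested. MAD2L1 encodes Mad2, the subunit that is loaded at unattached kinetochores to hold CDC20 (chromosome 4, 120055623 to 120066848). It had 69.9, 88.5 and 71.2 CPM in CCT068127, against 24.6, 17.1 and 15.4 CPM in DMSO, and rose 3.86-fold (1.95 ± 0.18, edgeR adjusted p = 5.02e-06). The other genes of the checkpoint stayed within 0.53 of 0 on the log2 scale. BUB1, a kinase that recruits the others, had 34.8, 46.8 and 38.6 CPM in CCT068127, against 40.1, 24.9 and 29 CPM in DMSO (0.31 ± 0.19, edgeR adjusted p = 0.18). BUB1B, which encodes BubR1, had 19.6, 24.6 and 28.9 CPM in CCT068127, against 32.5, 24.8 and 24.3 CPM in DMSO (-0.19 ± 0.18), and passed as lower with library totals (-0.50). BUB3 stood at 0.01 ± 0.11. TTK, the kinase that starts the signal, had 17.5, 25.1 and 17.3 CPM in CCT068127, against 16.7, 10.7 and 11.6 CPM in DMSO. Its groups did not overlap, and its edgeR adjusted p of 0.052 lay at the threshold. It passed without DMSO replicate 1 (0.76, edgeR adjusted p = 0.00237), with DESeq2 size factors (0.0384) and with DESeq2 (0.0273), as did BUB1 without DMSO replicate 1 (0.54, edgeR adjusted p = 0.00765). Mad2, BubR1 and Bub3 act in 1 complex with CDC20, and the TPM ratio of MAD2L1 over BUB1B was 2.28 ± 0.468 in CCT068127 and 0.492 ± 0.0456 in DMSO. That of MAD2L1 over BUB3 was 0.177 ± 0.00578 and 0.0505 ± 0.0072 (SD, n = 3 each).

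The kinetochore genes held both the highest and some of the lowest fold changes of the set. The inner kinetochore genes CENPU, CENPH and CENPK, whose products bind centromeric chromatin, all rose. CENPU (chromosome 4, 184694085 to 184734096) had 36.1, 61.1 and 47.8 CPM in CCT068127, against 13.2, 9.39 and 5.82 CPM in DMSO (2.18 ± 0.26, edgeR adjusted p = 7.7e-05), the highest fold change of the 52. CENPH had 50.1, 50.8 and 58 CPM in CCT068127, against 17.5, 11.4 and 15.8 CPM in DMSO (1.85 ± 0.17). CENPK had 32.4, 41.1 and 38.1 CPM in CCT068127, against 14.1, 8.77 and 9.41 CPM in DMSO (1.73 ± 0.20). In each of these 3 genes every treated library lay far above every DMSO library. CENPM rose by 0.76 ± 0.26, a call that was lost without CCT068127 replicate 1 or 2 or without DMSO replicate 2 or 3 (edgeR adjusted p = 0.0575 to 0.227) and with library totals (0.145).

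CENPA, the histone H3 variant that marks the centromere, did not rise. It had 11.2, 10.9 and 9.23 CPM in CCT068127, against 18.6, 11.5 and 11.9 CPM in DMSO. Its groups did not overlap but it did not pass (-0.47 ± 0.24, edgeR adjusted p = 0.108). It passed as lower with library totals (-0.78), on log2(TPM + 1) values (-0.83) and without DMSO replicate 2 (-0.64, edgeR adjusted p = 0.0356). The TPM ratio over CENPA was 2.53 ± 0.7 in CCT068127 and 0.362 ± 0.089 in DMSO for CENPU, and 5.27 ± 0.982 and 1.11 ± 0.213 for CENPH. For CENPK it was 2.95 ± 0.54 and 0.633 ± 0.0188 (SD, n = 3 each). CENPA shares 138 exon bases on the same strand with SLC35F6, which had 13.2 CPM in CCT068127 and 27.2 CPM in DMSO. The part of SLC35F6 reads in the CENPA value and in these ratios was not tested.

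The 4 genes of the Ndc80 complex, whose products join in equal numbers to grip microtubules, moved unequally. SPC24 (chromosome 19, 11145493 to 11155782) had 26.5, 21.7 and 29.1 CPM in CCT068127, against 8.63, 4.85 and 4.78 CPM in DMSO (2.04 ± 0.25, edgeR adjusted p = 4.59e-05). SPC25 had 9.99, 8.57 and 12.3 CPM in CCT068127, against 6.87, 4.7 and 5.52 CPM in DMSO (0.88 ± 0.22, edgeR adjusted p = 0.00557). NUF2 had 26.9, 37.7 and 34.6 CPM in CCT068127, against 24.9, 13.5 and 14.3 CPM in DMSO (0.84 ± 0.26, edgeR adjusted p = 0.0181). These 3 rose with no overlap between groups, where 33.3% of all genes were higher without overlap. NDC80 had 19.2, 28.6 and 22 CPM in CCT068127, against 33.9, 22.9 and 19 CPM in DMSO, where the groups overlapped and the gene did not pass (-0.22 ± 0.23, edgeR adjusted p = 0.419). SPC25 lost its call without CCT068127 replicate 3 (0.72, edgeR adjusted p = 0.0512), and NUF2 without CCT068127 replicate 2 (edgeR adjusted p = 0.0926) or 3 (0.078). NUF2 also lost it with library totals (0.0966).

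Per length, SPC24 stood at 1.31 ± 0.302 of the NDC80 level in CCT068127 and at 0.316 ± 0.0276 in DMSO (TPM ratio, SD, n = 3 each). The ratio over NDC80 was 0.852 ± 0.184 in CCT068127 and 0.395 ± 0.0833 in DMSO for SPC25, and 1.61 ± 0.12 and 0.761 ± 0.0991 for NUF2. None of these ratios overlapped between groups. Of 20 ratios computed, which were chosen after the fold changes had been seen, 18 did not overlap. For 3 libraries against 3 the smallest two-sided exact permutation p is 0.1, so no ratio could pass 0.05. CENPU shares 346 exon bases with PRIMPOL on the opposite strand, which had 13.7 CPM in CCT068127 and 10.7 CPM in DMSO. PRC1 shares 3181 with an annotated same-strand locus that was not analysed here. The sources used here do not say whether counting used strand, and reads from shared bases could not be told apart.

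**Figure D3:**
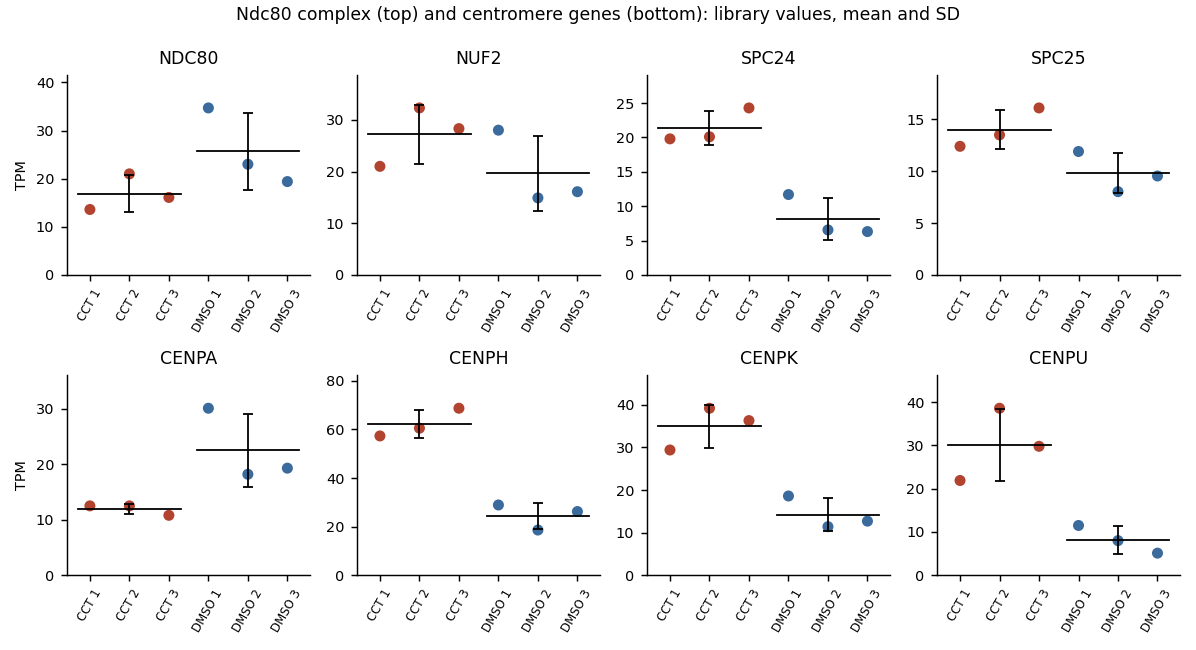
TPM (y axis, from 0) in each library (x axis) for the 4 Ndc80 complex genes in the top row and for CENPA, CENPH, CENPK and CENPU below, with lines for group means and bars for SD. SPC24 is at 19.8 to 24.3 TPM in CCT068127 and 6.31 to 11.7 TPM in DMSO, while CENPA is at 12.5 TPM in CCT068127 replicates 1 and 2 and at 18.2 TPM or more in DMSO.

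The large kinetochore proteins CENPE, a motor that carries chromosomes to the spindle equator, and CENPF depended on 1 treated library. CENPE (chromosome 4, 103105811 to 103198343) had 2.65, 17.1 and 15.4 CPM in CCT068127, against 28.8, 18.5 and 17.8 CPM in DMSO (-1.09 ± 0.50, edgeR adjusted p = 0.091). CENPF had 19.8, 58.3 and 49.7 CPM in CCT068127, against 70.3, 50.3 and 54.2 CPM in DMSO (-0.54 ± 0.34, edgeR adjusted p = 0.198). The kinesin gene KIF20B had 5.3, 28 and 25.8 CPM in CCT068127, against 23.8, 16.5 and 17.8 CPM in DMSO (-0.13 ± 0.47). In each, CCT068127 replicate 1 lay far below replicates 2 and 3. Without it the log2 fold changes were -0.51 for CENPE, -0.17 for CENPF and 0.41 for KIF20B, none past the threshold. CENPE passed as lower without CCT068127 replicate 3 (-1.65, edgeR adjusted p = 0.0467) and with library totals (-1.40, 0.025), and CENPF with library totals (-0.85, 0.0406).

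These low values in CCT068127 replicate 1 went with transcript length. Across the 52 members, the log2 level in CCT068127 replicate 1 minus the mean of replicates 2 and 3 had a Pearson correlation of -0.61 and a Spearman correlation of -0.60 with the log2 length of the longest coding transcript in GENCODE 29. For CCT068127 replicate 2 minus the mean of the others the correlations were 0.69 and 0.67. That mean includes replicate 1, whose low values raise this difference, so the replicate 2 result is not independent of the replicate 1 result. Over 12069 tested genes with a coding transcript the correlations were -0.17 and -0.25 for replicate 1 and 0.14 and 0.25 for replicate 2. Genes of 1 library share its RNA and its preparation, so these are descriptions across genes. The 6 members above 6000 bases (KIF20B, KIF14, BUB3, CENPE, CENPF and MKI67) had a median difference of -1.07 in CCT068127 replicate 1, against -0.13 for the 2303 genes of such length. The fold change itself had a Pearson correlation of -0.36 with length across members, or -0.25 without CCT068127 replicate 1. Over all genes those values were -0.12 and -0.08. The 12 members up to 2000 bases had a median log2 fold change of 1.03 and the 6 above 6000 bases one of -0.33, or -0.07 without CCT068127 replicate 1. Over all genes the medians of those length classes were 0.16 and -0.23. The part of transcript length or RNA quality in the fold changes was not tested.

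**Figure D4:**
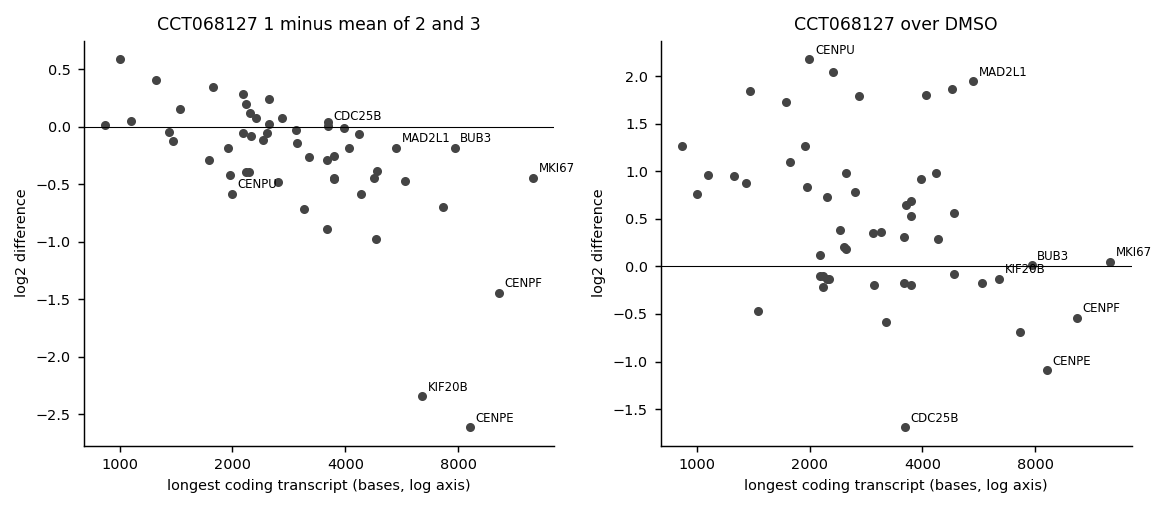
Length of the longest coding transcript in bases (x axis, log scale) against the log2 difference between CCT068127 replicate 1 and the mean of replicates 2 and 3 (left) and against the log2 fold change of CCT068127 over DMSO (right), 1 point per member. CENPE (-2.61), KIF20B (-2.34) and CENPF (-1.44) lie lowest on the left.

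Among the 10 kinesins 4 rose, against 31.9% of all genes, and none by 2-fold. KIF4A, a chromokinesin that also shortens the central spindle, had 51.4, 64 and 44.5 CPM in CCT068127, against 32.3, 21.8 and 24.5 CPM in DMSO (0.98 ± 0.18, edgeR adjusted p = 0.000662). KIF22, another chromokinesin, rose by 0.98 ± 0.18. KIF11, the motor that pushes spindle poles apart, had 49.9, 75.4 and 56.3 CPM in CCT068127, against 48.7, 35.2 and 35.2 CPM in DMSO (0.56 ± 0.18, edgeR adjusted p = 0.017). KIF23, a subunit of centralspindlin, rose by 0.69 ± 0.21 although CCT068127 replicate 1 (71.1 CPM) lay below DMSO replicate 1 (71.7 CPM). The KIF11 call was lost when CCT068127 replicate 2 or 3 or DMSO replicate 2 or 3 was left out (edgeR adjusted p = 0.0544 to 0.0826), and that of KIF23 without CCT068127 replicate 2 or 3 or DMSO replicate 2 (0.0564 to 0.0929). With library totals neither passed.

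The 2 kinesins that fell were KIF20A and KIF14. KIF20A, which carries the passenger complex to the central spindle (chromosome 5, 138179112 to 138187723), had 22.8, 29.7 and 25.1 CPM in CCT068127, against 48.8, 31.6 and 30.9 CPM in DMSO. The groups did not overlap (-0.58 ± 0.20, edgeR adjusted p = 0.0289), and the call was lost without CCT068127 replicate 1 (0.132) or 3 (0.098), while without DMSO replicate 1 the log2 fold change was -0.34. KIF14, which acts in cytokinesis, had 9.99, 14.3 and 18.5 CPM in CCT068127, against 29.4, 19.4 and 17.9 CPM in DMSO (-0.69 ± 0.26, edgeR adjusted p = 0.0401). Its groups overlapped, and its call did not hold without CCT068127 replicate 1 (-0.46, adjusted p = 0.208), CCT068127 replicate 2 (0.0955) or DMSO replicate 1 (-0.45, 0.0715). DESeq2 (0.0505) also left it short of the threshold. KIF20A shares 132 exon bases on the opposite strand with BRD8, which had 38 CPM in CCT068127 and 68.2 CPM in DMSO, and 68 with CDC23, which had 51.3 CPM in CCT068127 and 38.3 CPM in DMSO. Their part in the KIF20A value was not tested. KIF2C, KIF15 and KIF18A stood at 0.35, -0.08 and -0.17 and did not pass, and KIF2C passed without DMSO replicate 1 (0.62, edgeR adjusted p = 0.00103). Without CCT068127 replicate 1, 4 kinesins rose and 0 fell (median 0.37), against 29.6% and 31.2% of all genes in that fit.

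The central spindle and cytokinesis genes held 2 of the larger increases. PRC1, which bundles the microtubules of the central spindle (chromosome 15, 90966040 to 90994535), had 282, 347 and 296 CPM in CCT068127, against 117, 77.2 and 67.3 CPM in DMSO (1.80 ± 0.19, edgeR adjusted p = 2.16e-05). Its partner KIF4A rose less, and the TPM ratio of PRC1 over KIF4A was 9.01 ± 1.09 in CCT068127 and 5.03 ± 0.751 in DMSO (SD, n = 3 each). ANLN, the scaffold of the contractile ring (chromosome 7, 36389862 to 36453791), had 99, 151 and 120.5 CPM in CCT068127, against 44.1, 28.2 and 25.1 CPM in DMSO (1.87 ± 0.22, edgeR adjusted p = 7.02e-05). ECT2, which activates RhoA at the division site, had 57.5, 92.5 and 80.2 CPM in CCT068127 and 69.2, 53.7 and 61.1 CPM in DMSO and did not pass (0.29 ± 0.17), but did without CCT068127 replicate 1. CEP55, which recruits the abscission machinery, rose by 0.78 ± 0.19. PRC1 and KIF20A act at the same structure, and their TPM ratio was 12.8 ± 0.554 in CCT068127 and 2.49 ± 0.165 in DMSO (SD, n = 3 each).

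Of 5 spindle-associated genes 2 rose, PRC1 (above) and TPX2, and neither of the 2 chromosome structure genes passed. Among all genes 31.9% rose and 64.7% passed. TPX2, the activator of AURKA, had 174, 179 and 159.5 CPM in CCT068127, against 144, 91.2 and 89.4 CPM in DMSO (0.65 ± 0.18, edgeR adjusted p = 0.00806). It lost its call without CCT068127 replicate 2 (0.0528) and with library totals (0.11). HMMR (0.36), NUSAP1 (0.38) and DLGAP5 (-0.19), all microtubule-associated, did not pass. HMMR and NUSAP1 passed without DMSO replicate 1 (0.55 and 0.63, edgeR adjusted p = 0.0304 and 0.00111). DLGAP5 had 31.4, 39.4 and 30.5 CPM in CCT068127 and 48.6, 32.1 and 30.8 CPM in DMSO. With library totals DLGAP5 (-0.51) and TOP2A (-0.48) passed as lower. TOP2A, the topoisomerase that untangles sister chromatids, had 113, 165 and 148 CPM in CCT068127, against 193, 145 and 136 CPM in DMSO (-0.17 ± 0.17, edgeR adjusted p = 0.381). MKI67, which encodes the proliferation marker Ki-67, had 111, 183 and 124 CPM in CCT068127, against 174, 114 and 108 CPM in DMSO (0.05 ± 0.22, edgeR adjusted p = 0.86). Both overlapped between the groups.

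All 4 genes around the APC/C rose with no overlap between the groups. Over all genes 31.9% rose, and 33.3% were higher with no overlap. UBE2C, the enzyme that starts ubiquitin chains on APC/C substrates (chromosome 20, 45812644 to 45816952), had 85.2, 80.5 and 87.3 CPM in CCT068127, against 46.6, 30.5 and 25.7 CPM in DMSO (1.27 ± 0.19, edgeR adjusted p = 0.000255). CDC20, the activator held by the checkpoint (chromosome 1, 43358981 to 43363203), had 149, 109.7 and 125 CPM in CCT068127, against 77.1, 48.7 and 53.9 CPM in DMSO (1.10 ± 0.18, edgeR adjusted p = 0.00037). PTTG1, which encodes the substrate securin, had 64, 53.1 and 72 CPM in CCT068127, against 42.3, 27.2 and 27.9 CPM in DMSO (0.96 ± 0.19, edgeR adjusted p = 0.00111). FBXO5, which encodes the interphase inhibitor Emi1, had 21, 28 and 27.2 CPM in CCT068127, against 16.2, 14.5 and 14 CPM in DMSO (0.73 ± 0.14, edgeR adjusted p = 0.00117). All 4 kept their call when any 1 library was left out and with library totals, while on log2(TPM + 1) values PTTG1 and FBXO5 did not pass, nor did CDC20 when no TPM filter was used. The TPM ratio of CDC20 over CCNB1, an APC/C substrate that did not pass, was 1.95 ± 0.287 in CCT068127 and 0.852 ± 0.0446 in DMSO. The ratios of PTTG1 over CDC20 (1.22 ± 0.184 and 1.32 ± 0.0446) and of FBXO5 over CDC20 (0.157 ± 0.0447 and 0.191 ± 0.0322) overlapped between the groups (SD, n = 3 each).

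The direction of small changes depended on the scaling. The median log2 fold change of all genes was -0.05 with TMM, -0.36 with library totals and -0.46 on log2(TPM + 1) values, and the member medians moved with it to 0.06 and -0.01. With library totals 18 members were higher and 13 lower, against 22.1% and 48.3% of all genes. On log2(TPM + 1) values 15 were higher and 12 lower, against 17.2% and 51.9%. In each of these 3 fits the class medians kept the same order, with the APC/C and kinetochore genes above the kinases and kinesins. Of the 27 members that passed, 11 kept their direction and call in all 15 alternatives run: CDK1, BIRC5, MAD2L1, CENPH, CENPK, CENPU, SPC24, PRC1, ANLN and UBE2C as higher and CDC25B as lower.

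**Figure D5:**
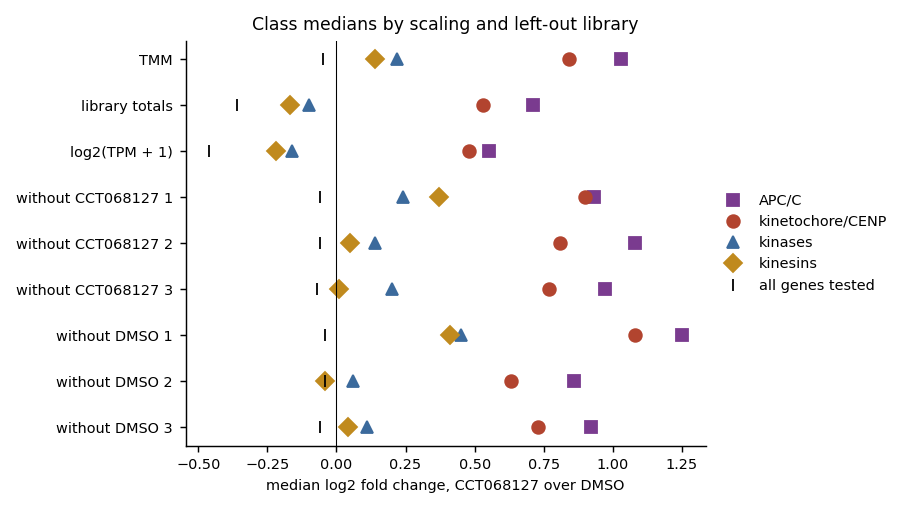
Median log2 fold change of CCT068127 over DMSO (x axis) for 4 classes and for all genes tested, by scaling and with each library left out (y axis). The median of the APC/C factors, none a core subunit, stays between 0.55 and 1.25 and the kinetochore median between 0.48 and 1.08. The kinase median lies between -0.16 and 0.45 and the kinesin median between -0.22 and 0.41.

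A further 86 mitotic genes in 5 lists, outside the set, were all tested. Of these 47 rose, 7 fell and 32 did not pass (median 0.54), beside 31.9% higher and 32.8% lower among all genes. With library totals 36 were higher (41.9%) and 22 lower (25.6%), against 22.1% and 48.3% of all genes. On log2(TPM + 1) values 26 were higher (30.2%) and 25 lower (29.1%), against 17.2% and 51.9%. The balance of the 86 moved with the scaling, as did that of all genes. These all-gene shares also apply to the list counts below. Among 15 genes of the inner kinetochore and CENP-A loading 11 rose and 0 fell (median 1.01), such as CENPX (1.57 ± 0.13) and CENPQ (1.87 ± 0.22), both subunits at the centromere. On log2(TPM + 1) values 8 were higher and 3 lower. Among 13 outer kinetochore genes 9 rose and 0 fell (median 0.44), with ZWINT at 2.11 ± 0.22 and DSN1, of the Mis12 complex, at 1.26 ± 0.16. With library totals 4 outer kinetochore genes were higher and 3 lower, on log2(TPM + 1) values 3 and 3, and without CCT068127 replicate 3, DMSO replicate 2 or DMSO replicate 3 the number higher was 5, 4 and 5. Of 16 genes for the APC/C core and its chain enzymes 7 rose and 2 fell (median 0.12). ANAPC15 (1.21 ± 0.11) and the chain-extending enzyme gene UBE2S (0.97 ± 0.17) rose, and the core subunit genes CDC16 and ANAPC16 fell by 0.93 and 0.75 on the log2 scale. With library totals 4 of the 16 were higher and 7 lower, and on log2(TPM + 1) values 1 and 7. Without CCT068127 replicate 1 there were 4 lower, against 31.2% of all genes in that fit.

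Among 17 other mitotic kinases, phosphatases and regulators 10 rose and 1 fell (median 0.85). ARPP19, whose product restrains the phosphatase PP2A in mitosis, rose by 1.38 ± 0.10, and the kinase gene NEK9 fell by 0.93. With library totals 8 were higher and 2 lower, against 22.1% and 48.3% of all genes. On log2(TPM + 1) values 7 were higher and 3 lower, against 17.2% and 51.9%. Among 25 other spindle and cytokinesis genes 10 rose and 4 fell (median 0.54). With library totals 10 were higher and 9 lower, and on log2(TPM + 1) values 7 and 9, beside the same shares of all genes. RHOA, the GTPase of the contractile ring, rose by 1.46 ± 0.11, and TUBA1B, an alpha-tubulin gene with near-identical relatives that can share reads, by 2.65 ± 0.15. CLASP1, a microtubule plus-end factor, fell by 1.32 and NUMA1, which anchors spindle poles, by 0.92 on the log2 scale. DMSO replicate 1 was the highest DMSO library for 65 of these 86 genes.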

How the data were processed

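Per the labels' protocols, mRNA was enriched by its poly(A) tails and Illumina libraries were prepared with a New England Biolabs kit. The authors deposited whole-number estimated counts and TPM for each symbol, 1 column per library. The submitters' processing notes list RSEM, Bowtie and hg38. Annotation and strandedness: not given in the sources used here.

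Groups and replicate numbers came from sample titles. The counts were analysed across all genes with edgeR 4.0.16 (R 4.3.3): filterByExpr with a minimum count of 10 left 13597 genes, libraries were scaled by TMM, and a robust quasi-likelihood model with treatment as its term was tested two-sided, with Benjamini-Hochberg adjustment over all genes and calls at an adjusted p under 0.05. SE values were approximated from the F statistic. Rose and fell are used for called genes. No set test was run. Alternatives were DESeq2 size factors, library totals, no filter, a replicate block, DESeq2 1.42.0, limma-trend (limma 3.58.1) on TPM values, thinning both deep DMSO libraries to the depth of the shallow one, and leaving out each library. The procedure was tested on simulated counts with few changed genes, evenly higher and lower, and the same replicate noise for every gene. That setting does not test the scaling or the replicate noise met here. In the 4 shallow libraries 3 counts, the limit that a count of 0 allows, equal 0.504 to 1.53 CPM. Such limits cover counting error only.

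Replicate pairs within a group differed by more than counting noise, by a chi-square statistic that averaged, for each degree of freedom, 1.99 for DMSO replicates 2 and 3 and 4.58 to 9.41 for the other pairs at thinned depth. The members and gene lists were chosen with earlier results of these data known, and values by library are given for 17 genes listed in advance and for the highest and lowest fold change of each role group. Others were added after their values were seen, as were the length relation and the 7 promoters shown. Gene positions and promoters are from RefSeq on GRCh38.p14. Some marker and neighbouring-gene values are not reported here.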

Additional observations from a re-analysis of the deposited data

How the results depend on the processing

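Across all genes tested, the number called higher was 2474 and 2444 on log2(TPM + 1) and log2(TPM + 0.1) values, and the number called lower was 7472, 7299 and, without a filter, 7365. These fits held 14394 genes, or 27872 without a filter, of which 3039 were higher. Of the 52 members, 15 were higher on log2(TPM + 1) and log2(TPM + 0.1) values with 12 and 10 lower, and without a TPM filter 10 were higher and 7 lower, 17 in all. With library totals 13 were lower (25%), against 48.3% of all genes. Without a low-count filter 11 were lower (21.2%), against 6300 of the 29138 genes in that fit. Leaving out 1 library gave 1 to 4 members lower, with 1 without CCT068127 replicate 1, against 31.2% of all genes in that fit. The median of the set was 0.06 with library totals and -0.01 on the TPM scales. Medians with library totals were -0.10 for kinases, 0.71 for APC/C genes and -0.02 for the 19 members of no class. Without a low-count filter the APC/C median was 0.78. On log2(TPM + 1) values, with or without a filter, medians were -0.16 for kinases, 0.48 for kinetochore genes, -0.22 for kinesins, 0.55 for APC/C genes and -0.16 for the remaining members, and on log2(TPM + 0.1) values -0.17, 0.50, -0.25, 0.56 and -0.16.

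Among single members, changes of sign were confined, in the alternatives run, to genes that did not pass in the main fit. With library totals BUB3 (-0.31, adjusted p = 0.0325), CCNB2 (-0.13), CDCA8 (-0.11), ECT2 (-0.02), MKI67 (-0.26) and NEK2 (-0.19) were below 0. On log2(TPM + 1) values this held for BUB1 (-0.10), BUB3 (-0.27), CCNB2 (-0.24), CDCA8 (-0.16), ECT2 (-0.19), KIF2C (-0.10), MKI67 (-0.39), NEK2 (-0.23) and NUSAP1 (-0.03), with the same values without a filter. On log2(TPM + 0.1) values it held for BUB1 (-0.11), MKI67 (-0.41), NEK2 (-0.24) and the other 6 at the same values. Without a low-count filter BUB3 (-0.24), CCNB2 (-0.07), CDCA8 (-0.04), MKI67 (-0.19) and NEK2 (-0.13) were below 0. KIF15 (0.02) and KIF20B (0.03) were above 0 with DESeq2, and CDC25C (0.15) and KIF20B (0.00) with the deep libraries thinned. The cause was not tested. Over the 6 fits that left out 1 library, signs also changed for CCNB1 (-0.23 to 0.07), CDC25C (-0.28 to 0.20), PLK1 (-0.27 to 0.06), AURKA (-0.26 to 0.07), NEK2 (-0.02 to 0.36), BUB3 (-0.10 to 0.06), NDC80 (-0.37 to 0.02), KIF15 (-0.29 to 0.21), KIF18A (-0.34 to 0.10), KIF20B (-0.61 to 0.41), DLGAP5 (-0.32 to 0.03) and MKI67 (-0.20 to 0.27).

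Deviations from group means correlated between -0.03 and 0.02 over all 9 pairs of a CCT068127 and a DMSO library, so no pairing by replicate number was seen. Counting noise in the shallow libraries could hide a weak pairing, so these values cannot exclude one. With the replicate block 26 members were higher and 2 lower, 28 in all, beside 4107 higher and 4190 lower of the 13597 genes. KIF14 lost its call (adjusted p = 0.0547), and TTK (0.0416) and NUSAP1 (0.0419) gained one.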
